A study of Rattus norvegicus with 29 samples.

Results

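The cytosolic ribosome is built from ribosomal RNA and a set of ribosomal proteins, which carry the prefix Rps in the small subunit and Rpl in the large one. In whole dorsal root ganglia of elderly rats, 74 transcripts of such proteins were followed. They were chosen by symbol (Rpl or Rps with a number and at most a short suffix, Rplp0 to Rplp2, or Rpsa) and by a mean CPM of at least 1 over 29 libraries, CPM being reads scaled to the size of the library, with the most read transcript standing for each gene. The symbol pattern found 82 genes among the 16238 named genes of the count tables, and 74 passed the CPM minimum, 30 of the small and 44 of the large subunit.

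Dorsal root ganglia hold the cell bodies of sensory neurons with their satellite glia and Schwann cells, and ganglia C6 to C8 serve the forelimb. The Lister Hooded rats fell into 3 arms, each sampled at week 5 and week 11. The sham arm had no stroke (the series text calls these rats naïve), the vehicle arm had a unilateral cortical stroke and an infusion of vehicle, and the NT3 arm had the stroke and a subcutaneous infusion of neurotrophin-3, a growth factor of sensory neurons. Each library came from the ganglia of 1 rat on the affected side, with 4 sham rats at week 5 and 5 rats in every other group. The stroke lies in the brain, so the ganglia are remote from the lesion. In tissue of mixed cells, fewer cells of a type and less RNA per cell cannot be told apart.

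Ribosomal protein genes are transcribed in nearly every cell. In mammals their messengers usually begin with a terminal oligopyrimidine (TOP) tract, a C at the cap followed by a run of C and T, through which the kinase mTOR and the cap-binding protein LARP1 set how well they are translated. Sensory neurons also carry some of these messengers into their axons, and local translation there has been described in rodents.

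Promoter windows from RefSeq on assembly GRCr8 are given for chosen members at both ends of the results below and for 2 genes beside their paralogs. Not all of them hold this start. Each window holds the 20 bases before the annotated start and the 20 bases from it on, 5′ to 3′ on the strand of the transcript. Capitals mark the run of C and T that begins at the annotated start with a C and has at least 4 further pyrimidines. Rplp1 lies at chr8:71290853-71290892 (minus strand), Rps15 at chr7:10068096-10068135 (minus), Rpl35a at chr11:81235002-81235041 (minus), Rps3a at chr2:173827023-173827062 (minus) and Rps24 at chr16:96497-96536 (plus). The pairs are Rps27 at chr2:177964587-177964626 (minus) with Rps27l at chr8:76443638-76443677 (plus), and Rpl22 at chr5:168117941-168117980 (plus) with Rpl22l1 at chr2:113683176-113683215 (plus).
Rplp1: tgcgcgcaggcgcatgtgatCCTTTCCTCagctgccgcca
Rps15: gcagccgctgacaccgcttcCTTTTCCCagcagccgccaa
Rpl35a: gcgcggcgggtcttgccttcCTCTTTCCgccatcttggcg
Rps3a: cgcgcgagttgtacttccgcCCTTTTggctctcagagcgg
Rps24: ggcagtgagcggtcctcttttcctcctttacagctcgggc
Rps27: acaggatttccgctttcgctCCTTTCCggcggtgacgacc
Rps27l: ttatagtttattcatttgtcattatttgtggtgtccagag
Rpl22: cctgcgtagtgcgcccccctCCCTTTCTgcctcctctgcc
Rpl22l1: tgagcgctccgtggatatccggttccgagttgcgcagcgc

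Of the 74 members, 59 had a promoter in the RefSeq table. The run stood exactly at the annotated start in 22 of them (37.3%), against 881 of all 33469 promoters (2.63%) and 264 of the 9531 genes with a tested transcript (2.77%). The run was also sought anywhere in the 10 bases before the start and the 10 bases from it on. There, 43 members held a C with at least 4 further pyrimidines (72.9%), against 23.7% of all promoters. Only the strand of the transcript was read, and a match describes these letters without showing where transcription begins in the ganglion. Rps27 and Rpl22 held the run at their starts, while the windows of their paralogs Rps27l and Rpl22l1 did not. Rps24 had no run at the annotated start but one within 10 bases of it.

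Libraries held between 9555685 and 22773108 reads assigned to transcripts, and members took between 1.17% and 1.89% of them. The share of reads outside annotated features (of assigned, ambiguous and outside reads together) ran from 25.4% to 38.3%. Libraries from 3 rats stood apart. Rats 8 and 11, both sham at week 11, had the lowest shares, 25.4% and 27.0%, and rat 27, vehicle at week 11, had the highest, while the other 26 lay between 29.4% and 34.8%. Rat 27 also had the fewest assigned reads and 59.2 reads aligned to several places per 100 counted, where the next library had 23.95. The mean log2 CPM of 5 tested brain markers was 6.41 in rat 27 and between 2.65 and 3.16 in the other libraries that did not stand apart, and that of 8 macrophage markers was 5.06 against 2.66 to 4.38. The 12 tested sensory neuron markers averaged 8.49, 8.47 and 8.37 in rats 8, 11 and 27, against 8.35 to 8.79 in the other 26, so messengers of sensory neurons were abundant in every library.

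Members were abundant but not evenly counted. Mean CPM ran from 1.14 to 559 with a median of 173, and 70 members lay above 30 CPM. The highest counts were those of Rpl4 (559 CPM), Rpl3 (549 CPM) and Rplp0 (457 CPM). These levels are scaled to the library and not to length, so they do not rank the messengers by number. They also come from tables labelled as deduplicated. The least counted members were Rps19 with 1.14 CPM, Rpl39l1 with 1.66 CPM, Rps4y2 with 2.73 CPM and Rps27l with 22.2 CPM.

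The 8 genes under the minimum included core proteins of every ribosome. Among them, Rpl7a had 0.730 CPM, Rps12l4 0.473, Rps6 0.368, Rpl3l 0.290 and Rpl27l2 0.0761 CPM. Rplp2, the partner of Rplp1 in the stalk, had 1 read in all 29 libraries, and Rpl37a had 0. Rps6, the small-subunit protein phosphorylated by S6 kinases, and Rps19 thus lay far below other core proteins. Ribosomal proteins have many near-identical copies in mammalian genomes, and Fau, whose product is processed into another small-subunit protein, also had 0 reads. How far the counts of these genes measure their messengers was not tested.

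Over the 29 libraries, the SD of log2 CPM was under 0.2 in 53 of 74 members, with a median of 0.17. These SDs were not set beside those of transcripts with similar counts. Rpl4 (0.12) and Rpl22 (0.13) had the smallest SD. Rpl39l1 (0.55), Rps4y2 (0.51) and Rpl36 (0.50) had the largest, the first of them with few reads. Rpl36 spanned 15.8 to 68.1 CPM, a 4.30-fold range, and Rpl4 spanned 474 to 700 CPM, a 1.48-fold range.

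**Figure D1:**
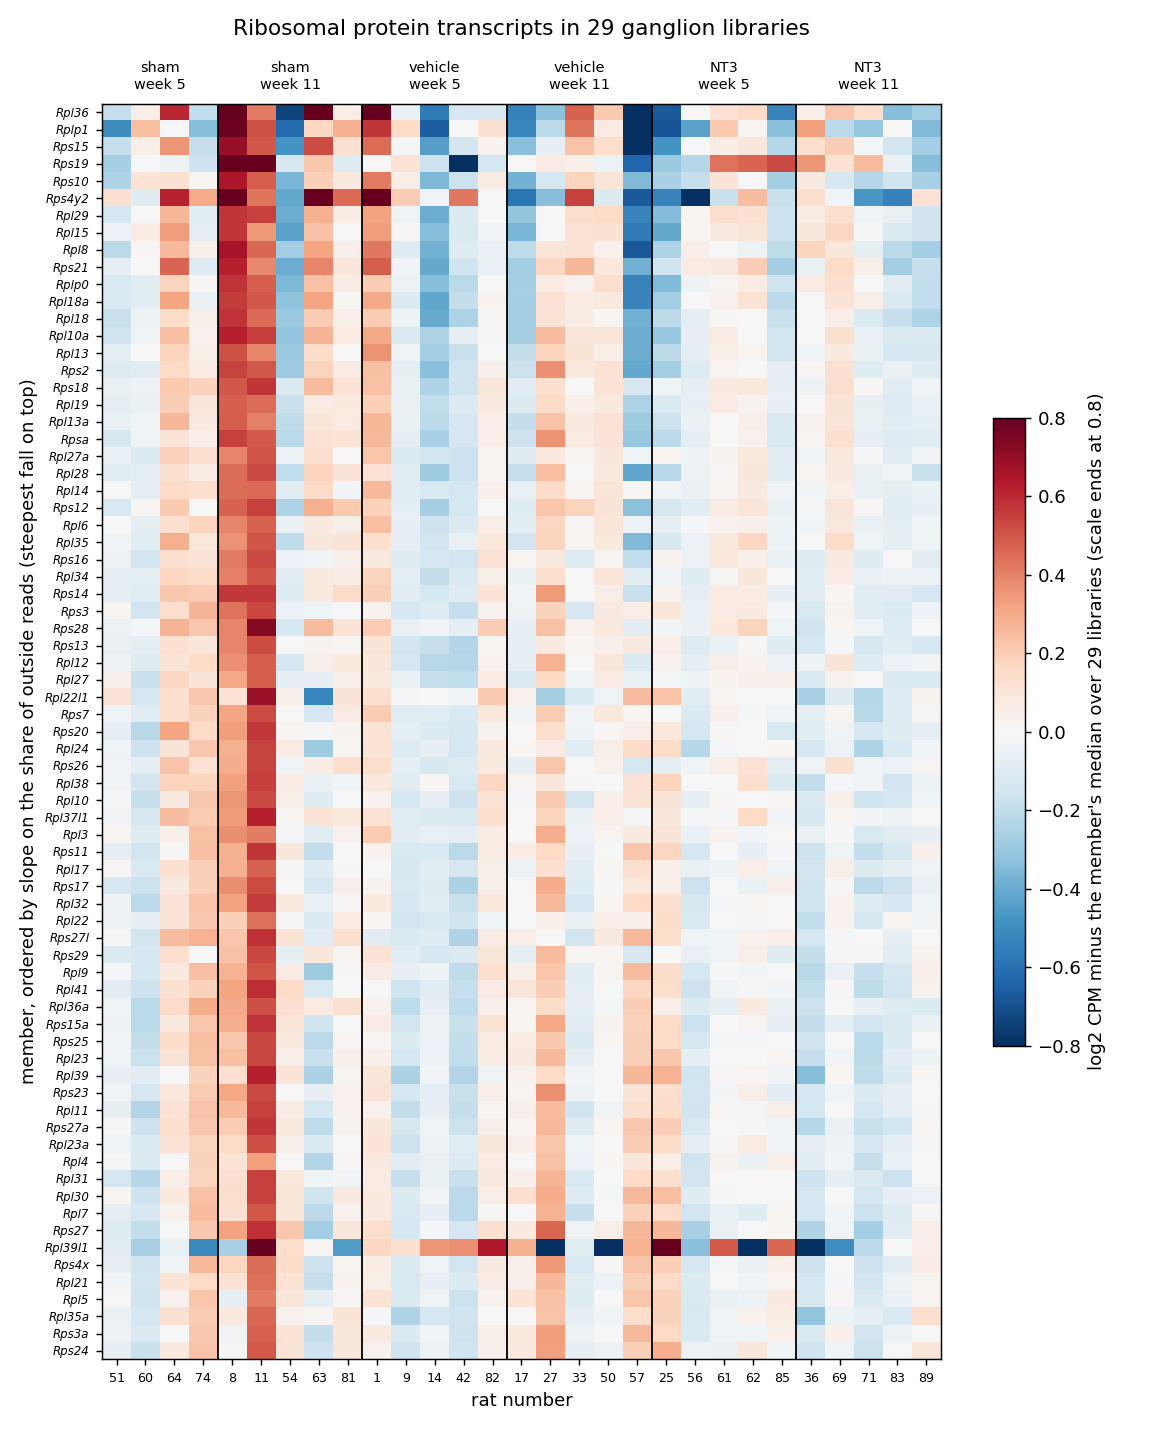
Each row is 1 member and each column 1 library (rat number below, group above), and the colour is log2 CPM minus the member's median over the 29 libraries; 1 of the 74 members is not drawn. Rats 8 and 11 of the sham week 11 group are red in nearly all rows, and the upper rows, Rpl36, Rplp1 and Rps15 among them, vary more between rats than the lower rows.

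Rats 8 and 11 held the highest values of nearly the whole set. Rat 11 was the highest library for 55 members and rat 8 for 17, together 72 of 74, and in 45 members they were the highest pair. How many of all transcripts were highest in these rats was not counted. Rat 11 lay above the member's own median in 74 of 74 members and rat 8 in 71. The mean log2 CPM of the 74 members was 7.53 in rat 11 and 7.37 in rat 8, and between 6.86 and 7.18 in the other 27 libraries. High values in rat 11 were not particular to the members. Translation factors averaged 7.74 in rat 11 and 7.44 in rat 8, against 7.41 to 7.67 in the other 26 libraries. Ribosome biogenesis genes averaged 5.39 and 5.03, against 5.12 to 5.34. For genes of the TOR pathway rat 11 lay within the range of these libraries, at 5.86. Rat 8 lay below the other 26 libraries in 2 marker lists where rat 11 lay within their range. The 6 satellite glia markers averaged 5.22 in rat 8 and 6.04 in rat 11, against 5.54 to 6.38 in the other 26 libraries, and the fibroblast markers 6.62 and 7.32, against 6.65 to 7.69. The part of cell makeup in the levels of rats 8 and 11 was not tested.

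No member passed the test in any comparison of groups. In edgeR's quasi-likelihood test with Benjamini-Hochberg adjustment, 0 of 74 members had an adjusted p under 0.05 in each of 14 comparisons, where 0% of all 12556 transcripts tested did in 13 of them and 0.844% (106 transcripts) in week 11 against week 5 within the vehicle arm. DESeq2 and limma voom also called 0 members in all 14. The group means of the members' mean log2 CPM were 7.03 ± 0.13 (SD, n = 4) in sham rats at week 5 and 7.19 ± 0.25 (n = 5) at week 11. They were 6.98 ± 0.14 and 7.01 ± 0.09 in vehicle rats, and 6.99 ± 0.06 and 6.94 ± 0.05 in NT3 rats (n = 5 each). The sham week 11 group ranged from 6.93 to 7.53 and overlapped with the ranges of the other 5 groups. Without rats 8 and 11 its mean was 7.01 ± 0.07 (n = 3).

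**Figure D2:**
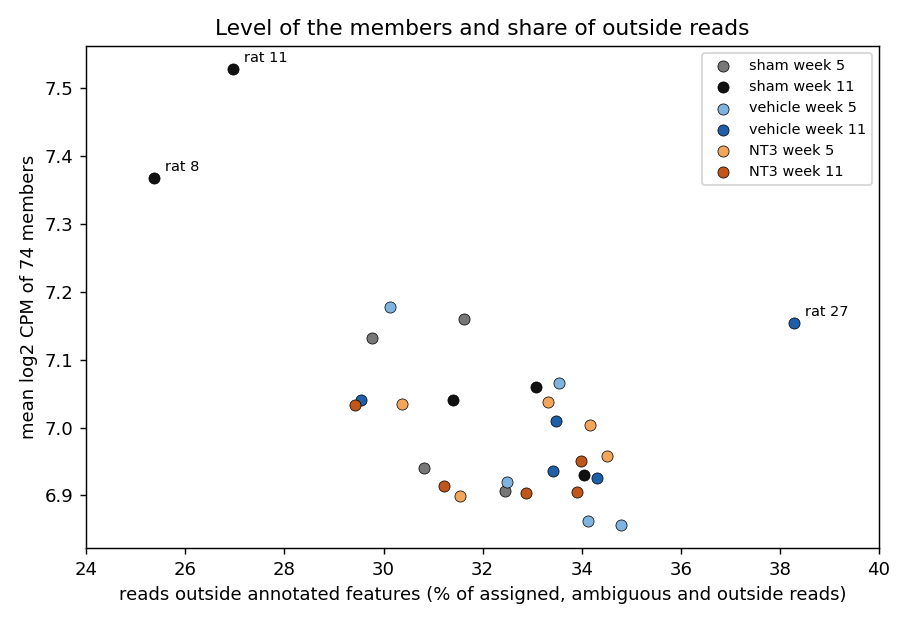
Each point is 1 library, with the outside share (percent of assigned, ambiguous and outside reads) on the x axis and the mean log2 CPM of the 74 members on the y axis, coloured by group. Rats 8 and 11 lie at the upper left, at 25.4% and 27.0%, and rat 27 lies far right at 38.3% with a member level of 7.15.

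Vehicle against sham sets rats with a stroke and a vehicle infusion against rats without a stroke. No infusion is described here for the sham arm, so stroke and infusion cannot be told apart. With weeks averaged, 73 of 74 members had a negative log2 fold change, with a median of -0.12 against -0.0051 over all transcripts, and 12 had an unadjusted p under 0.05, where 16.9% of all transcripts did. At week 5 the median was -0.071 with 0 members under an unadjusted 0.05 (8.38% of all transcripts), and at week 11 it was -0.16 with 23 (9.78% of all). Rps18, a protein of the small subunit's head, had the smallest p of the members with weeks averaged, with a log2 fold change of -0.19 (SE 0.07, adjusted p 0.271). Without rats 8 and 11 the week 11 median was 0.020, of the opposite sign.

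NT3 against vehicle asks what the growth factor adds after stroke. The medians were -0.041 with weeks averaged (0 members under an unadjusted 0.05, 3.32% of all transcripts), 0.028 at week 5 (1 member, 4.99% of all) and -0.097 at week 11 (1 member, 1.52% of all). The week 5 median was 0.079 without rat 1 and -0.00023 without rat 42, both of the vehicle group. The member at week 5 was Rps4y2, a relative of the X-linked Rps4x, with -0.72 (SE 0.29, adjusted p 0.830). Rat 1 had 5.52 CPM of Rps4y2 and the other 4 vehicle rats at week 5 between 2.43 and 3.33 CPM, and without rat 1 the log2 fold change was -0.45. The one at week 11 was Rps27, a zinc-binding small-subunit protein, with -0.28 (SE 0.12, adjusted p 1.00). With weeks averaged the smallest p among members was that of the sparsely counted Rps19, at 0.29 (SE 0.16, adjusted p 1.00).

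In NT3 against sham, all 74 members were negative at week 11, with a median of -0.26 and a range of -0.70 to -0.12, and 53 had an unadjusted p under 0.05, where 9.12% of all transcripts did. With weeks averaged the median was -0.15 and 30 members were under an unadjusted 0.05 (10.6% of all), and at week 5 the median was -0.050 with 0 members (2.4% of all). Without rat 74 of the sham week 5 group the week 5 median was 0.031, of the opposite sign. Rpl36a, a large-subunit protein at the exit site for transfer RNA, had the smallest p at week 11, with -0.32 (SE 0.09, adjusted p 0.505). Its counts at week 11 were 87.6, 101, 77.5, 74.3 and 77.2 CPM in sham rats and 63.0, 71.0, 67.9, 66.2 and 65.7 CPM in NT3 rats, so the groups did not overlap and the widest gaps were to rats 8 and 11. How many other members, or how many of all transcripts, also separated these groups was not counted. Without rats 8 and 11 the median of the members at week 11 was -0.049 and 0 had an unadjusted p under 0.05. This comparison shares its sham rats with vehicle against sham.

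Between weeks, all 74 members were positive in sham rats with a median of 0.15 (2 with an unadjusted p under 0.05, 3.73% of all transcripts), and the median was -0.021 without rats 8 and 11. Rps19 had the smallest p there, at 0.51 (SE 0.23, adjusted p 0.988). The median was 0.062 in vehicle rats and -0.060 in NT3 rats, each with 0 members under an unadjusted 0.05 (8.82% and 1.58% of all transcripts). The difference between weeks of vehicle against sham had a median of -0.075 (2 members, 3.06% of all; 0.027 without rat 11) and that of NT3 against vehicle a median of -0.13 (2 members, 3.01% of all). In vehicle rats, 6 of 8 macrophage markers were called higher at week 11 in the comparison where 0 members were called.

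**Figure D3:**
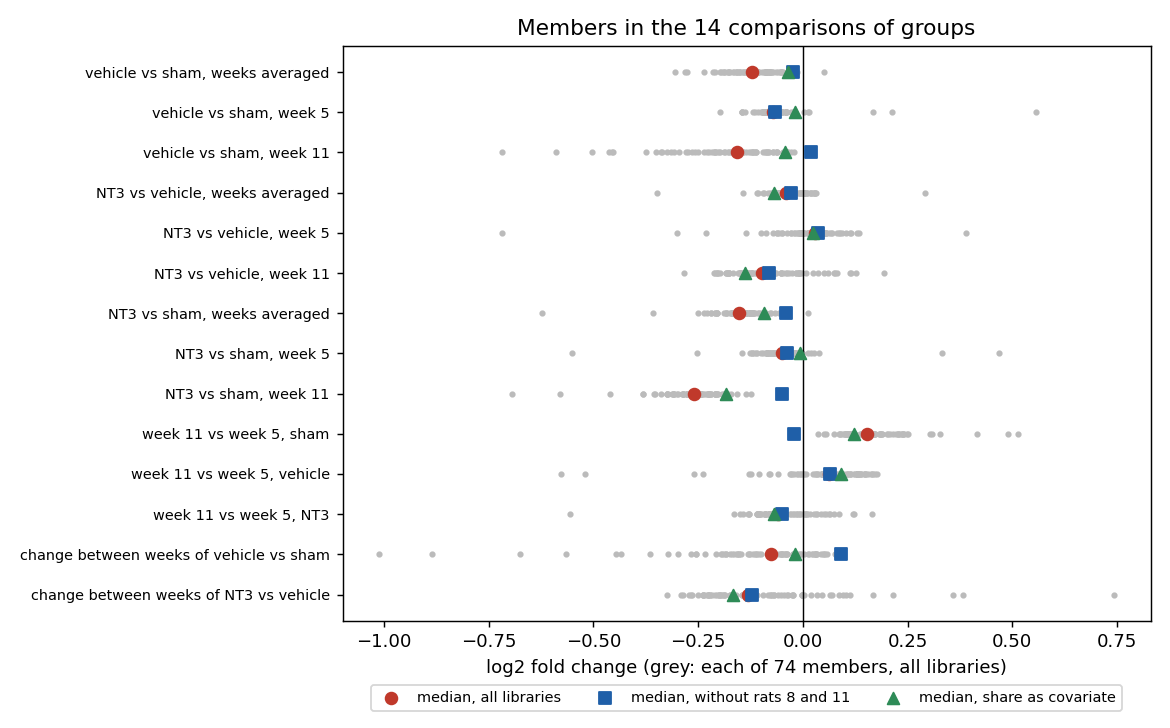
Grey points are the log2 fold changes of the 74 members in each of 14 comparisons, with their median over all libraries (red), without rats 8 and 11 (blue) and with the share of outside reads as a covariate (green). NT3 against sham at week 11 has its red median at -0.26 and its blue one at -0.049.

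The members were next related to the share of outside reads, with a term for each of the 6 groups so that differences between groups did not enter the slope. Slopes are log2 change in level per 5 percentage points of the share. Of 74 members, 33 were called lower with a higher share (adjusted p under 0.05, edgeR) and 0 higher, where 23.4% of all 12556 transcripts were called lower and 30.5% higher. The median slope of the members was -0.13, with 71 of 74 negative, against 0.014 over all transcripts. By subunit, 13 of 30 small-subunit members (median -0.14) and 20 of 44 large-subunit members (median -0.12) were called lower. The share moves with most of the transcriptome here, so these members are among 53.9% of transcripts called in one direction or the other. What sets the share was not tested.

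**Figure D4:**
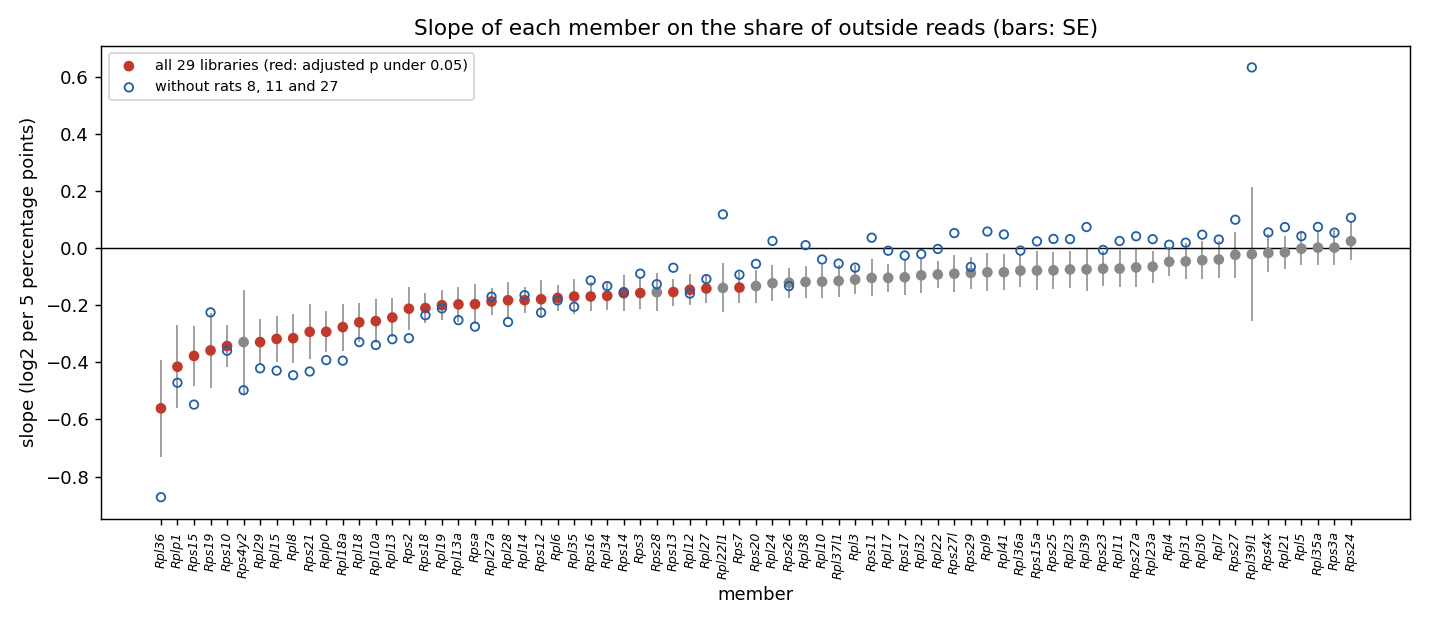
Slopes of the 74 members, 1 of them not drawn, on the share of outside reads in log2 per 5 percentage points, ordered from the steepest fall, with SE bars, red where the adjusted p was under 0.05, and open blue circles for the slope without rats 8, 11 and 27. The steep end, from Rpl36 at -0.56, keeps its sign without these rats, while many slopes right of the middle lie near 0.

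Rpl36, a protein of the large subunit, had the steepest slope, at -0.56 (SE 0.17, adjusted p 0.00750), a fall by 32.2% per 5 percentage points. In sham rats it had 30.4, 35.7, 52.6 and 30.2 CPM at week 5 and 62.7, 46.2, 20.7, 68.1 and 35.8 CPM at week 11. In vehicle rats it had 63.7, 33.2, 23.3, 31.5 and 31.6 CPM at week 5 and 23.8, 27.6, 48.0, 39.95 and 15.8 CPM at week 11. In NT3 rats it had 21.7, 34.6, 37.5, 38.5 and 23.8 CPM at week 5 and 35.5, 40.3, 37.9, 27.3 and 28.6 CPM at week 11. All 6 groups overlapped, and the sham week 11 group alone spanned 20.7 to 68.1 CPM. High values were not confined to rats 8 and 11: rat 63 of the same group, at 31.4% outside reads, had the highest value. Without rats 8, 11 and 27 the slope was -0.87 (adjusted p 0.00295).

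The stalk of the large subunit, made of the P proteins, recruits the elongation factors that bind GTP. Of its 4 listed genes, 3 had enough reads to be tested and all 3 were called lower. Rplp1 had a slope of -0.42 (SE 0.15, adjusted p 0.0192), Rplp0, its anchor, -0.29 (SE 0.07, adjusted p 0.00153), and Rpl12, at the base of the stalk, -0.15 (SE 0.05, adjusted p 0.0263). Rplp1 had 124, 207, 175 and 138 CPM in sham rats at week 5 and 302, 249, 114, 197 and 213 CPM at week 11. In vehicle rats it had 261, 196, 111, 175 and 191 CPM at week 5 and 122, 151, 235, 184 and 86.9 CPM at week 11. In NT3 rats it had 109, 129.96, 202, 178 and 139 CPM at week 5 and 220.2, 151, 142, 175 and 137 CPM at week 11. Rat 8 was highest and rat 57 of the vehicle week 11 group lowest, and the groups overlapped throughout. Without rats 8 and 11, Rplp0 was still called (-0.22, adjusted p 0.0455), and Rplp1 (-0.35, adjusted p 0.152) and Rpl12 (-0.040, adjusted p 0.622) were not. Rplp1 also lost its call without rat 8 alone or rat 54 alone, and Rpl12 without rat 8, rat 11 or rat 54 alone.

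On the small subunit, Rps10, a protein of its beak, had the smallest adjusted p of the members, 0.000589, with a slope of -0.34 (SE 0.07). Sham rats had 79.8, 102, 103 and 95.9 CPM at week 5 and 148, 133, 73.7, 108 and 100.2 CPM at week 11. Vehicle rats had 126, 97.9, 74.1, 84.3 and 98.8 CPM at week 5 and 72.8, 86.1, 107, 101 and 74.2 CPM at week 11. NT3 rats had 79.1, 83.4, 102, 94.8 and 78.9 CPM at week 5 and 99.8, 86.8, 80.9, 85.1 and 79.3 CPM at week 11. Rats 8 and 11 were highest, followed by rat 1 of the vehicle week 5 group, and the groups overlapped. Rps15, near the decoding site of the small subunit's head, had a slope of -0.38 (SE 0.11, adjusted p 0.00461). Rps19, whose human counterpart is mutated in Diamond-Blackfan anaemia, had -0.36 (SE 0.13, adjusted p 0.0254), on few reads, and lost the call without rat 8, rat 11 or rat 54 alone.

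The proteins at the channel through which messenger RNA enters were represented by Rps2 and Rps3, and both were called lower, with slopes of -0.21 (SE 0.08, adjusted p 0.0218) and -0.16 (SE 0.06, adjusted p 0.0191). Neither call held without rats 8 and 11, where the slopes were -0.10 (adjusted p 0.384) and -0.019 (adjusted p 0.822). Rps2 also lost it without rat 8 or rat 54 alone, and Rps3 without rat 8, rat 11 or rat 54 alone. Rpsa, the small-subunit protein once named as a laminin receptor, had -0.20 (SE 0.07, adjusted p 0.0198) and was not called without rat 8 or rat 54 alone. Around the exit of the nascent chain, 2 of 7 tested members were called lower (28.6%, near the 23.4% of all transcripts), one of them Rpl19 at -0.20 (SE 0.05, adjusted p 0.00273).

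Of the large subunit, Rpl29 had a slope of -0.33 (SE 0.08, adjusted p 0.00144), Rpl15 -0.32 (SE 0.08, adjusted p 0.00214) and Rpl8 -0.31 (SE 0.09, adjusted p 0.00354). Rps21 of the small subunit had -0.29 (SE 0.10, adjusted p 0.0127), which was not called without rat 8 alone. Rpl34 stood near the middle of the called members, at -0.17 (SE 0.05, adjusted p 0.00611), and had its 2 highest values in rats 8 and 11, at 139 and 149 CPM. The other 27 libraries had between 91.9 and 119 CPM of Rpl34.

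The proteins that ride with 5S ribosomal RNA, Rpl5 and Rpl11, which bind the p53 regulator MDM2 when ribosome assembly is disturbed, were not called. Their slopes were -0.0016 (SE 0.06, adjusted p 0.985) and -0.071 (SE 0.07, adjusted p 0.365). Rpl5 had 346, 309, 354 and 403 CPM in sham rats at week 5 and 329.9, 458, 367, 329 and 348 CPM at week 11. In vehicle rats it had 373, 319, 339, 307 and 352 CPM at week 5 and 372, 406, 324, 345 and 403 CPM at week 11. In NT3 rats it had 393, 319, 332, 334 and 363 CPM at week 5 and 316, 348, 319.6, 333 and 352 CPM at week 11. Rat 11 was the highest library for Rpl5, whereas rat 8, with the lowest share, lay at 329.9 CPM among the lower values of its group.

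Rps24, whose human counterpart is also mutated in Diamond-Blackfan anaemia, had the most positive slope, at 0.025 (SE 0.07, adjusted p 0.777). Sham rats had 173, 162, 193 and 214 CPM at week 5 and 184, 257, 196, 163 and 194 CPM at week 11. Vehicle rats had 187, 164, 178, 163 and 188 CPM at week 5 and 192, 229, 173, 177 and 209 CPM at week 11, and NT3 rats 223, 177, 176, 195 and 180.1 CPM and 164, 179, 162, 183 and 195 CPM. Rat 11 stood highest and rat 27 second, and the groups overlapped. Rpl35a (0.0019), Rps3a (0.0022), Rpl21 (-0.014) and Rps27 (-0.023) had slopes of similar size, with adjusted p between 0.827 and 0.983.

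**Figure D5:**
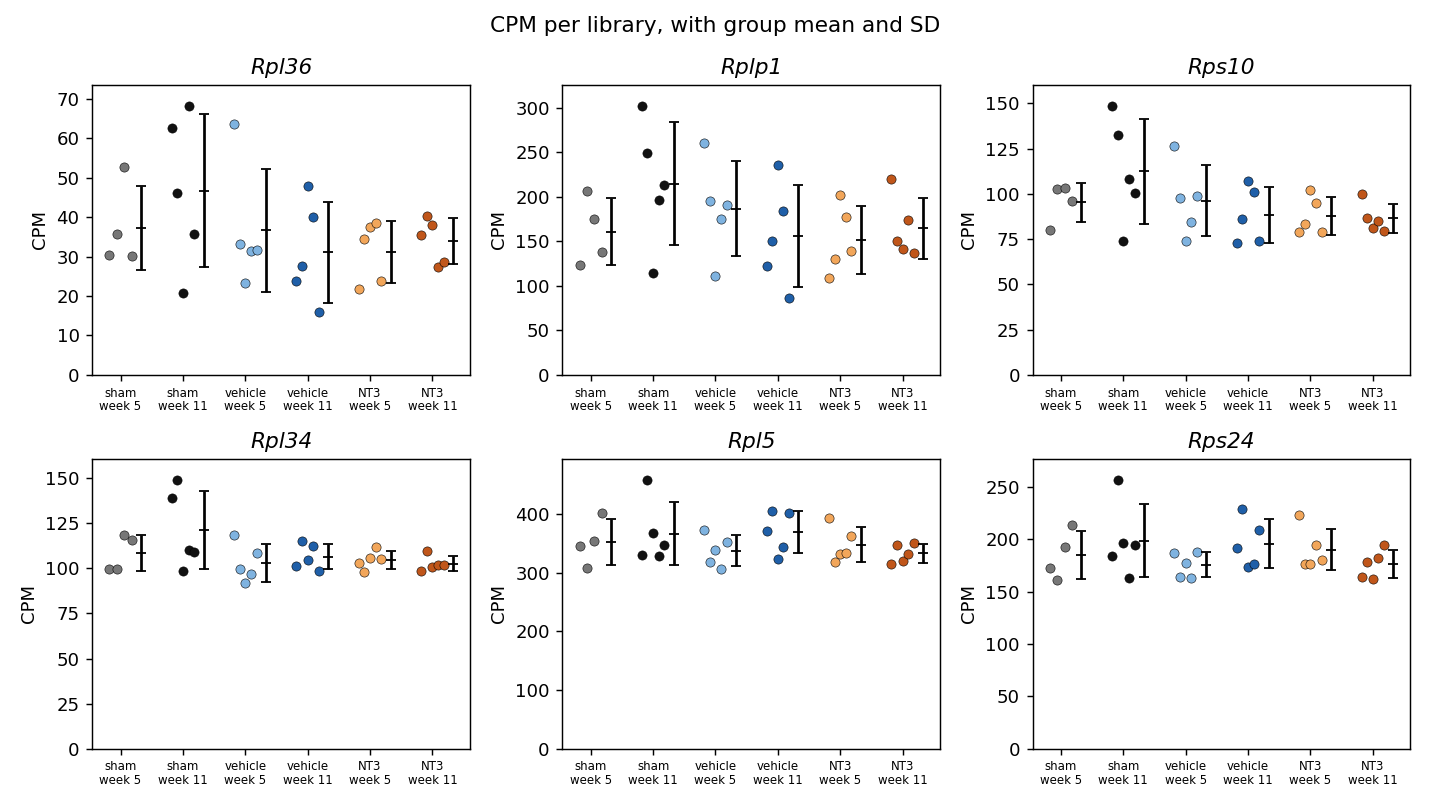
CPM of 6 members in each library by group, with the group mean and SD beside the points. Rpl36, Rplp1 and Rps10 scatter widely within groups (Rpl36 from 15.8 to 68.1 CPM), and Rpl5 and Rps24 scatter less, with rat 11 highest (458 and 257 CPM).

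Paralogs, which may replace their close relatives in some ribosomes, did not pass the test: 0 of 3 tested were called. Rpl22l1 was counted at 59.1 ± 17.6 CPM (SD, n = 5) in sham rats at week 11 and 49.2 ± 3.97 CPM (n = 5) in NT3 rats at week 11, and Rpl22 at 80.0 ± 12.0 and 70.2 ± 4.77 CPM. In rat 63 Rpl22l1 had its lowest value, 37.5 CPM, against 67.6 CPM for Rpl22, and in rat 11 both were highest, at 86.6 and 99.0 CPM. Slopes were -0.14 (SE 0.09, adjusted p 0.173) for Rpl22l1 and -0.092 (SE 0.05, adjusted p 0.114) for Rpl22. Rps27l, a p53 target in human and mouse cells, had between 18.1 and 32.2 CPM in every library, with a slope of -0.089 (SE 0.06, adjusted p 0.245). Its log2 fold change in vehicle against sham with weeks averaged was -0.18 (SE 0.07, adjusted p 0.278). Rps4y2 had a slope of -0.33 (SE 0.18, adjusted p 0.130). Rpl41, the smallest ribosomal protein, is no paralog and had -0.084 (SE 0.06, adjusted p 0.270).

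The 33 calls rested in part on the libraries that stood apart. Without rats 8 and 11, 6 members were called lower (11.7% of all transcripts), all 6 among the 33: Rpl36, Rps15, Rps10, Rpl29, Rpl15 and Rplp0. The median slope was then -0.0060, with 37 members negative and 37 positive. Without rats 8, 11 and 27, 27 were called lower (22.2% of all transcripts), 26 of them among the 33, and the median was -0.067. One member, Rpl39l1, was called higher there, at 0.63 (adjusted p 0.0361), against -0.021 (adjusted p 0.949) with all libraries, on 0.618 to 3.78 CPM. Without rat 27 alone 46 were called (29.2% of all), with all of the 33 among them, without rat 8 alone 19 (14.8%), without rat 11 alone 25 (25.1%) and without rat 54 alone 21 (18.1%). Other tools and settings gave 36 with DESeq2 (25.7% of all), 35 with limma voom (29.6%), 45 without the filter (24.5%), 48 without group terms (27.4%) and 47 without rats 8 and 27 (26.3%). Rat 27, with the highest share, had a member level of 7.15, the fifth highest, beside its brain markers and its low depth, and the part of these in its level was not tested.

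Genes that work with the ribosome were taken from lists, whose counts stand beside 30.5% of all transcripts called higher with the share and 23.4% called lower. The calls and slopes on the share in this paragraph and the next come from the fit with all libraries. Whether they hold without the libraries that stood apart was not tested. Rack1, a scaffold on the small subunit that the symbol rule leaves out, was lower, with a slope of -0.17 (SE 0.05, adjusted p 0.00939). Mitochondrial ribosomal proteins, which build the separate ribosome of mitochondria, had 41 of 64 tested called lower (64.1%) and 0 higher, with a median of -0.15. Translation factors went both ways, with 12 of 40 called higher, near the share of all transcripts, and 18 lower (45.0%). Eif6, which keeps subunits apart until assembly is complete, had -0.28 (SE 0.04, adjusted p 1.59e-05), and Eif5b, which joins the subunits, had 1.23 (SE 0.24, adjusted p 0.000197). The list of other TOP messengers, which also holds Rack1 and some of these factors, had 5 of 18 called higher (27.8%) and 7 lower (38.9%). Naca, a chaperone subunit for nascent chains, had 1.10 (SE 0.12, adjusted p 4.20e-07), and Eef1g, an elongation factor subunit, -0.18 (SE 0.04, adjusted p 0.00134).

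Ribosome biogenesis genes had 17 of 56 called higher and 17 lower (30.4% each), near the shares of all transcripts. The TOR pathway and regulators of these messengers had 5 of 21 called higher (23.8%) and 6 lower (28.6%), also near those shares, among the higher Rps6kb1, the kinase of Rps6, at 1.13 (SE 0.23, adjusted p 0.000336). Satellite glia markers had 4 of 6 called higher with the share and 0 lower. Macrophage markers had 2 of 8 higher (25%, below the 30.5% of all transcripts) and 0 lower, and fibroblast markers 2 of 5 and 0. Sensory neuron markers had 3 of 12 higher and 4 lower, endothelial markers 1 of 5 each way, and myelinating Schwann cell markers 0 of 7 either way. Brain markers had 3 of 5 higher and 0 lower. Their mean log2 CPM was 6.41 in rat 27, the library with the highest share, against 2.65 to 3.16 in the 26 libraries other than rats 8, 11 and 27. Red blood cell and skeletal muscle markers each had 0 of 3 either way. In no list of this family was a gene called in vehicle against sham, NT3 against vehicle or NT3 against sham. Of all 12556 transcripts, 0 were called in these comparisons, so this is not particular to the lists. The mitochondrial ribosomal proteins had a median of -0.19 in NT3 against sham at week 11, beside -0.26 for the cytosolic ones. Rats 8 and 11 of the sham week 11 group had a mean log2 CPM of 5.27 and 5.47 for the mitochondrial list. The 26 libraries other than rats 8, 11 and 27 ran from 4.92 to 5.23. Both medians include rats 8 and 11.

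The TOP run was set beside the slopes. It stood at the annotated start in 12 of the 29 called members that had a promoter (41.4%) and in 10 of the 30 that were not called (33.3%), and within 10 bases in 72.4% and 73.3%. Rplp1 and Rps15, with steep slopes, and Rpl35a and Rps3a, with slopes near 0, all held it at the start. Rpl36, the steepest, Rps19, also steep, and Rpl21, near 0, held no run at the start or within 10 bases. The GC content of the 300 bases around the start had a median of 58.3% in called members and 53.7% in the others. Over these 59 members its Pearson correlation with the slope was -0.28, a description over genes that share the same 29 libraries.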

How the data were processed

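The deposited tables hold whole-number read counts per RefSeq transcript, without normalization, and 5 summary lines (outside annotated features, ambiguous, aligned to several places and others), which stayed out of library sizes. The tables used are labelled as deduplicated (dedup). What removing duplicate reads did to the counts of these members was not tested. Per the submitters' processing notes, bcl2fastq 1.8.4, TopHat2, Picard and HTSeq were used with the builds named rn6 and Rnor_6.0, without the role of each. Libraries were stranded and poly-A selected, per the labels' protocols. Each library was 1 rat, rat numbers were unique, and the p-values measure the spread between rats. No batch is named in the labels.

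Of 18092 transcripts, 17090 matched a symbol in RefSeq's GRCr8 gene table, used for names only, and 1002 (4.56% of reads) did not. Members and lists were chosen with earlier results of these data known. Counts were fitted with edgeR 4.0.16 (R 4.3.3), TMM scaling (factors 0.974 to 1.06) and filterByExpr on the 6 groups (minimum count 10, total 15), which left 12556 transcripts, all 74 members among them. The quasi-likelihood F-test was two-sided, with Benjamini-Hochberg adjustment over all transcripts and a threshold of 0.05, and all 29 libraries shared 1 estimate of the spread (common biological coefficient of variation 0.185). The slope on the outside share is given per 5 percentage points in place of the planned 1, which changes no test. CPM values in the text are TMM-scaled, and log2 CPM used a prior count of 2. The fits were tested on simulated data with known changes.

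Alternatives were DESeq2 1.42.0, limma 3.58.1 (voom with quality weights), DESeq2 size factors, library totals only, no filter, the deposited smaller table of 15308 transcripts, only the groups compared, the share as a covariate, the share without group terms or ambiguous reads, and each library left out. Named members were those with known paralogs or roles, the smallest p per comparison and the extremes of slope, level and SD, and the text names fewer. Members per coding length were not ranked, since no lengths were used here. Rpl29, Rpl15, Rpl8, Rps21, Rpl34 and Rps6kb1 were named after their values were seen. The single values of a few genes are not reported here, and the counts and medians include them.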

Additional observations from a re-analysis of the deposited data

Results flagged for a closer look

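In groups of 4 or 5 rats, 198 sets of values were searched for a library far from the others (Dixon's criterion at the 95% level). The values were CPM of named members, the members' mean log2 CPM and the outside share. Such a library was found in 5 sets, all of CPM values, where chance flags about 1 in 20. They were Rps21 at 108 CPM in rat 64 of the sham week 5 group, Rpl35a at 46.0 CPM and Rpl39l1 at 3.78 CPM in rat 11 of the sham week 11 group, Rpl36 at 63.7 CPM in rat 1 of the vehicle week 5 group, and Rps19 at 0.698 CPM in rat 57 of the vehicle week 11 group.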

How the results depend on the processing

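The count of 0 members called in each of the 14 comparisons of groups held under every alternative, each library left out included. The medians of 4 comparisons moved by more than the spread between rats without rats 8 and 11 and without rats 8, 11 and 27: NT3 against sham at week 11 was -0.0487 and -0.0486, vehicle against sham at week 11 0.0203 and 0.00222, sham week 11 against week 5 -0.0209 and -0.0208, and the change between weeks of vehicle against sham 0.0917 and 0.0711. With 1 library left out at a time, these 4 medians ran from -0.297 to -0.153, -0.219 to -0.0618, 0.0621 to 0.219 and -0.149 to 0.0268. For the other 10, vehicle against sham ran from -0.155 to -0.0776 with weeks averaged and -0.119 to -0.00866 at week 5, and NT3 against vehicle from -0.0544 to -0.00764, -0.000233 to 0.0786 and -0.110 to -0.0581 with weeks averaged, at week 5 and at week 11. NT3 against sham ran from -0.172 to -0.101 with weeks averaged and -0.0964 to 0.0307 at week 5, the weeks from 0.0194 to 0.103 in vehicle and -0.0934 to -0.0321 in NT3 rats, and the change between weeks of NT3 against vehicle from -0.166 to -0.0905. The cause of these moves was not tested beyond the libraries left out.

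For the share of outside reads, the 33 calls became 36 with DESeq2, 35 with voom, 36 with DESeq2 size factors (25.1% of all transcripts called lower), 40 with library totals only (26.5%), 45 without the filter, 43 with the smaller table (26.9%), 48 without group terms, 31 without ambiguous reads (21.6%), 47 without rats 8 and 27, 6 without rats 8 and 11, and 19 to 46 with 1 library left out (19 without rat 8, 21 without rat 54). The median slope was -0.21 without rats 8 and 27, -0.0060 without rats 8 and 11, and -0.188 to -0.0805 with 1 library left out. Rats 8 and 11 were removed together, and rat 27 with them, only after the data were seen.

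Sign changes were followed for the named members only, and without rats 8 and 11 more members turned positive than are listed here. Among the named members, some uncalled slopes changed sign under some settings, and all stayed uncalled apart from Rpl39l1 without rats 8, 11 and 27. They were not all near 0: that of Rpl22l1, at -0.14, was about the size of the members' median of -0.13. With rats 8 and 11 left out slopes were Rpl11 0.0735, Rpl21 0.108, Rpl22 0.00029, Rpl22l1 0.0115, Rpl39l1 0.33, Rpl41 0.0655, Rpl5 0.0672, Rps27 0.157 and Rps27l 0.0177. With rats 8, 11 and 27 left out slopes were Rpl11 0.0252, Rpl21 0.0739, Rpl22l1 0.119, Rpl39l1 0.633, Rpl41 0.0482, Rpl5 0.0423, Rps27 0.0998 and Rps27l 0.053. With voom slopes were Rpl21 0.0223, Rpl22l1 0.0275, Rpl39l1 0.466, Rpl5 0.0424 and Rps27 0.0227. With DESeq2 slopes were Rpl35a -0.0121 and Rps3a -0.00861. With DESeq2 size factors slopes were Rpl35a -0.00986 and Rps3a -0.00853. With library totals only slopes were Rpl35a -0.0214 and Rps3a -0.0209. With no filter slopes were Rpl35a -0.0511, Rps24 -0.0265 and Rps3a -0.0491. With the smaller table slopes were Rpl35a -0.016 and Rps3a -0.0157. With rats 8 and 27 left out slopes were Rpl35a -0.0824, Rps24 -0.0805 and Rps3a -0.112. With no group terms slopes were Rpl35a -0.0429 and Rps3a -0.00399. With 1 library left out, slopes that changed sign ran from -0.0639 to 0.038 for Rpl21, -0.0383 to 0.0553 for Rpl35a, -0.133 to 0.25 for Rpl39l1, -0.0366 to 0.0553 for Rpl5, -0.0269 to 0.0919 for Rps24, -0.0993 to 0.0339 for Rps27 and -0.0469 to 0.0671 for Rps3a.

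Rpl22 was called under 13 settings that it did not pass in the reported fit, at -0.147 to -0.100. No paired analysis was possible because each rat gave 1 library and rat numbers were unique. Depth limits Rps19, Rpl39l1 and Rps4y2, at 1.14 to 2.73 CPM.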
